A study of Mus musculus with 24 samples.

Results

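The effect of a high-fat diet on regulatory T cells (Tregs) that lack the insulin receptor was read from 8 of the 24 mice of the series, chosen by their labelled genotype and diet: 5 knockouts given a diet rich in fat and sucrose (HFD) and 3 knockouts kept on normal chow (NCD). Both groups were males on a C57/Bl6 background with the genotype Foxp3-cre;Insr-fl/fl, which carries a Cre recombinase driven by the Foxp3 gene and floxed copies of the insulin receptor gene. Feeding began at 3 weeks of age and lasted 13 weeks, so all 8 mice were 16 weeks old. The visceral adipose tissue (VAT) of each animal was processed by itself, so each sample is a separate mouse, and its Tregs were taken as the CD45+CD4+Foxp3(YFP)+ gate of a cell sorter. A custom NanoString nCounter panel of 96 genes was measured in the lysate. The submitters state that this Cre line also recombines outside Tregs, and they used F4 mice bred from F3 littermates. Control mice, which carry Foxp3-YFP-Cre with intact Insr, numbered 4 on HFD and 3 on NCD at the same age, and they gave the InsR level with the gene intact, their own diet difference and the test of whether that difference depended on genotype. They and the remaining mice of the series, 6 knockouts and 3 controls on NCD aged 52 weeks, also entered the model, so all 24 mice set the spread behind each test. The diet comparison asks how VAT Tregs that cannot receive the insulin signal through this receptor differ between HFD and NCD. Body weight and insulin were not among the values used.

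Tregs of visceral fat restrain inflammation in that tissue. They are known for dependence on the nuclear receptor PPARγ (Pparg) and on interleukin-33, which they sense through the receptor ST2 (Il1rl1), and their number falls in obese mice. The insulin receptor is a tyrosine kinase that signals through insulin receptor substrates such as Irs2, and the related receptor IGF1R can use the same substrates. In an nCounter assay, each transcript is caught by a barcoded probe pair and the barcodes are counted directly.

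The values are nCounter signal as scaled by the authors, and "signal" below has this scale. The 96 genes sum to about 100000 in each of the 8 knockout mice compared, but to 103368 to 126723 in the 3 NCD controls. Every signal of these 8 mice was a whole multiple of a step particular to its sample. The multiples are taken below as the recovered barcode counts. That they are raw counts was not tested, and their low values were unevenly spread over the last digit, as described at the end. The recovered totals were 34986, 99771, 60601, 108023 and 224793 counts in HFD knockouts, against 20360, 23790 and 11446 in NCD knockouts. All HFD totals exceeded all NCD totals, with a ratio of mean totals of 5.70. An exact two-sided permutation test gave p = 0.0357, the smallest that the 56 arrangements of 5 and 3 mice allow. Depth therefore moved with diet in all 8 mice, and it was examined by a depth covariate, whose value is given beside each called gene that is named, and by background subtraction. Probes differ in efficiency. Where different genes are ranked, summed or set side by side below, their values are not read as relative amounts of transcript.

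InsR, the gene targeted by the deletion, was near its lowest level in both diet groups. Its signal was 8.57, 3.01, 8.25, 5.55 and 1.78 in HFD knockouts, against 9.82, 4.21 and 17.5 in NCD knockouts. These signals rest on 3, 3, 5, 6 and 4 counts on HFD and 2, 1 and 2 counts on NCD. The signals overlap between diets, whereas every HFD count was above every NCD count. The ratio of mean counts was 2.52 (exact permutation p = 0.0357), so counts and scaled signal differed in direction. The mean signal was 5.43 ± 3.04 on HFD and 10.5 ± 6.66 on NCD (SD, n = 5 and 3), while controls had 92.0 ± 31.7 on HFD and 107 ± 49.7 on NCD (SD, n = 4 and 3). The diet difference in knockouts did not pass (log2 -0.81 (SE 0.56, adjusted p = 0.347), 95% interval -1.96 to 0.34), and the exact permutation p of the mean signal was 0.214. Pooled over mice, InsR took 21 of 528174 counts on HFD and 5 of 55596 on NCD, a ratio of 0.442 with an exact 95% binomial interval of 0.162 to 1.5, which covers counting error only. Where the InsR probe binds was not stated, so how much of the residual signal is transcript and how much background was not tested.

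On HFD, 17 of the 96 genes, 16 of them named here, were lower in knockout Tregs and 0 were higher (17.7% of genes called, all in 1 direction) by limma's moderated test on log2(signal + 1), with Benjamini-Hochberg adjustment over the 96 genes and a threshold of 0.05. The largest named differences were in the chemokine receptors Ccr3 and Ccr1, the probe named Rorgt, the T helper cytokine Il5 and the convertase Pcsk1. The other named genes that fell were Cabyr, S100a6, Zbtb10, GzmA, Anxa1, Nr1d1, Cxcl2, Perforin, Pparg, Gusb and S100a4, with log2 differences from -2.69 to -1.19. The median log2 difference over all 96 genes was -0.46, with 59 genes below 0 and 37 above it, and 30 genes had an unadjusted p under 0.05. With each sample centred on its median gene, which moves the median of all genes by 0.43, 17 genes were again called, 12 lower and 5 higher. The 12 lower genes were among the 17 above, of which 0 changed sign. The 5 higher genes, AdipoR2, Cxcr4, ICOS, TGFb and Tnfrsf9, were new calls. Without centring, the count of calls fell to 7 without NCD replicate 3 and to 11 without HFD replicate 5. These are the mice with the lowest and the highest total count.

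**Figure D1:**
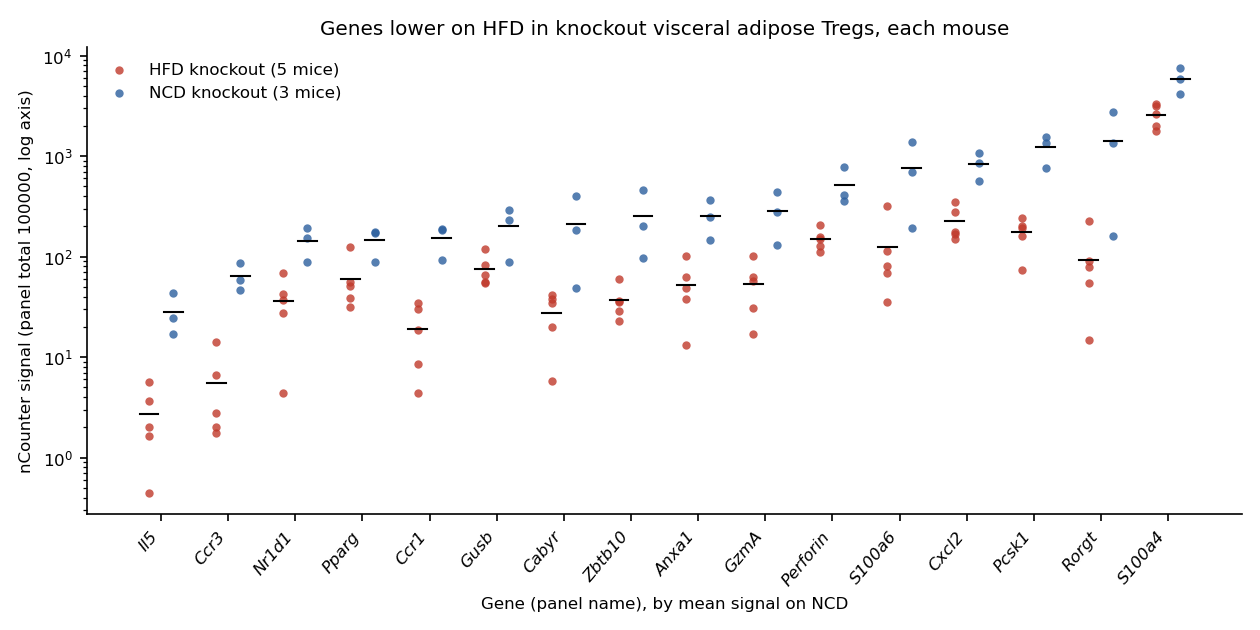
Signal of the 16 named genes that were lower on HFD, on a log axis, ordered by their mean on NCD. Points are mice, with 5 HFD knockouts to the left of 3 NCD knockouts for each gene, and bars are means. The groups overlap in Rorgt, S100a6, Gusb and Pparg.

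The signals of all HFD mice lay below those of all NCD mice in 20 of 96 genes (20.8%), among them 13 of the 17 called. The groups overlapped in the other 4 called genes, Rorgt, S100a6, Gusb and Pparg. All HFD mice lay above all NCD mice in 5 genes (5.21%), namely Foxp3, Helios, Rgs2, TGFb and Tnfrsf9, none of which passed the test. Among the recovered counts, before any scaling, only Ccr3 had all HFD mice below all NCD mice (1 of 96 genes, 1.04%). HFD replicate 5 was the lowest of the 5 HFD mice in 11 of the 17 called genes and in 33 of all 96. NCD replicate 3 was the highest of the 3 NCD mice in 14 of the 17 and in 46 of all 96. Fewer cells expressing a gene and less RNA per cell cannot be told apart in these bulk lysates, here and in every result below.

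The calls were next set against the level of the genes, in 3 groups of 32 by mean signal. In the lowest group, 9 genes were called, the median log2 difference was -1.44, and the median recovered count was 10 on HFD and 9.5 on NCD. In the middle group, 6 genes were called and the median difference was -0.35, with median counts of 210.5 on HFD and 59 on NCD. In the highest group, 2 genes were called and the median difference was 0.03, with median counts of 1659.5 on HFD and 323.5 on NCD. The lowest group thus had similar counts on both diets, while the totals that scale them differed 5.70-fold. With log2 total count as a covariate, 1 of the 17 genes still passed, and 0 of the 16 named ones did (limma, adjusted p 0.0844 to 0.548). All 17 kept a negative sign in that fit, while 22 of all 96 genes changed sign. Fitted on the 8 mice alone, 20 genes were called, 19 lower and 1 higher, and 14 of the 17 were among them. With 10 counts subtracted from every value as background, 5 passed, among them Ccr1, Cxcl2, Pcsk1 and Rorgt. With 20 counts subtracted, only Cxcl2 passed (log2 -2.03, adjusted p = 0.0203). The background subtractions were chosen after the data were seen.

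**Figure D2:**
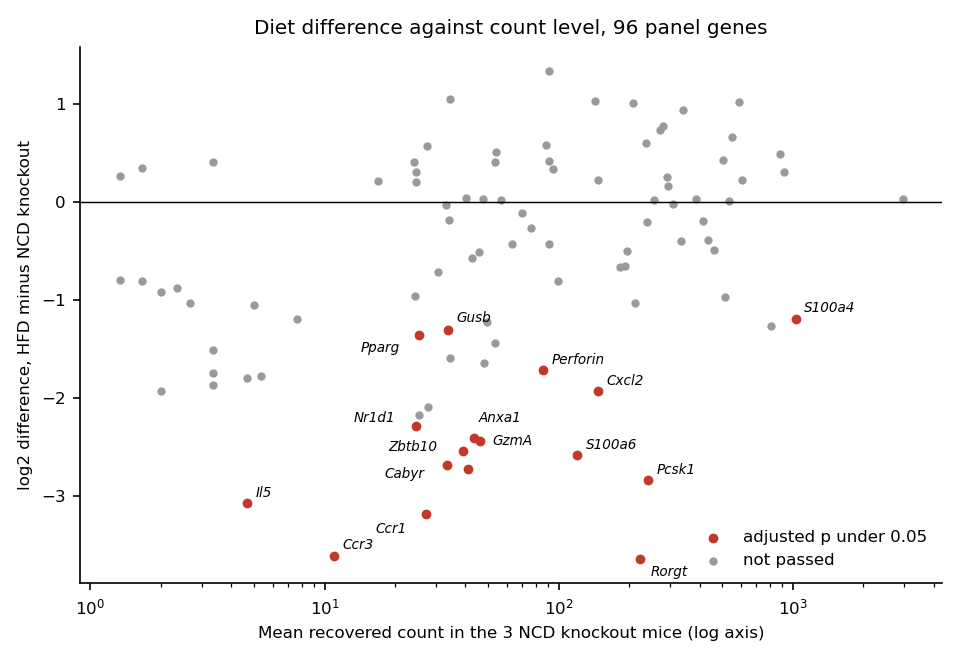
The log2 difference, HFD minus NCD knockout, of each of the 96 genes against its mean recovered count in the 3 NCD knockout mice, on a log axis. Red points passed at an adjusted p under 0.05 and grey points did not. Il5 and Ccr3 have the fewest NCD counts among the named red points and S100a4 has the most.

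Both CC chemokine receptors that fell are known from inflammatory trafficking. Ccr3 binds eotaxins and is best known on eosinophils and type 2 T cells, and Ccr1 binds Ccl3 and Ccl5. Ccr3 signal was 14.3, 2.00, 6.60, 2.78 and 1.78 in HFD knockouts, against 58.9, 46.3 and 87.4 in NCD knockouts. Every HFD mouse was below every NCD mouse, and HFD replicate 1 was the highest of the HFD mice. The log2 difference was -3.61 (SE 0.71, adjusted p = 0.00209), and no fold is given at its low counts. It rests on 5, 2, 4, 3 and 4 counts on HFD and 12, 11 and 10 on NCD, and the HFD counts overlap the 3 to 6 counts of InsR, the deleted gene, in the same mice. Ccr1 signal was 8.57, 30.1, 34.7, 18.5 and 4.45 in HFD knockouts, against 187, 92.6 and 183 in NCD knockouts, again with no overlap. Its log2 difference was -3.19 (SE 0.77, adjusted p = 0.00462), 9.11-fold lower on the log2(signal + 1) scale. The Ccr1 counts were 3, 30, 21, 20 and 10 on HFD and 38, 22 and 21 on NCD. Both receptors passed in each of the 8 fits that left out 1 mouse. With the depth covariate neither passed, at log2 differences of -2.11 for Ccr3 (adjusted p = 0.128) and -2.04 for Ccr1 (adjusted p = 0.249). With 10 counts subtracted, Ccr3 had -1.97 (limma, adjusted p = 0.327) and Ccr1 had -4.13 (adjusted p = 0.0338).

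The 2 that fell are of 8 measured chemokine receptors and adhesion molecules, against 17.7% of all genes. The other 6 did not pass, and the list's median log2 difference was 0.36, against -0.46 over all genes. Cxcr4, the receptor for Cxcl12, had 2192, 8167, 6818, 8632 and 6225 in HFD knockouts, against 3409, 3636 and 1878 in NCD knockouts. HFD replicate 1 lay among the NCD mice and the other 4 HFD mice were above them, with a log2 difference of 1.02 (SE 0.51, adjusted p = 0.176). Cxcr6, the receptor for Cxcl16, ranged from 54.3 to 371 on HFD and 17.5 to 255 on NCD. Ccr4 (0.51), Ccr7 (0.74), Ccr2 (0.21) and Cd44 (-1.51) had log2 differences on both sides of 0. Cd44, the hyaluronan receptor, had no more than 15 counts in any of these mice.

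Pcsk1 encodes a proprotein convertase that cleaves prohormones such as proinsulin in endocrine cells. Its signal was 74.3, 242, 201, 194 and 161 in HFD knockouts, against 1552, 1347 and 769 in NCD knockouts. All HFD mice were below all NCD mice, and HFD replicate 1 was the lowest. The log2 difference was -2.84 (SE 0.61, adjusted p = 0.00288), a 7.17-fold lower level, and it passed in each of the 8 fits that left out 1 mouse. With the depth covariate it was -2.68 (adjusted p = 0.0844). The counts were 26, 241, 122, 210 and 361 on HFD and 316, 320 and 88 on NCD. Furin, a convertase that activates TGF-β among other precursors, had 403, 807, 1061, 645 and 596 in HFD knockouts, against 909, 1061 and 1197 in NCD knockouts. The Furin ranges overlap and the difference did not pass (log2 -0.65 (SE 0.42, adjusted p = 0.308)).

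Cxcl2 and Cxcl3 are paralogous chemokines that attract neutrophils through the receptor Cxcr2, and both are classical targets of the transcription factor NF-κB. Cxcl2 signal was 177, 279.6, 348, 149 and 167 in HFD knockouts, against 569.7, 859 and 1083 in NCD knockouts, with no overlap between diets. The log2 difference was -1.93 (SE 0.43, adjusted p = 0.00337), a 3.80-fold lower level, and -1.59 with the depth covariate (adjusted p = 0.128). Cxcl3 signal was 22.9, 177, 150.2, 56.5 and 69.0 in HFD knockouts, against 98.2, 316 and 428 in NCD knockouts. HFD replicates 2 and 3 lay above the lowest NCD mouse, and the Cxcl3 difference did not pass (log2 -1.64 (SE 0.74, adjusted p = 0.126)). Nfkbid, an inhibitor-of-κB-family regulator needed for Treg development, had a log2 difference of -0.50 (SE 0.72, adjusted p = 0.678). Whether the probes tell these similar transcripts apart was not tested.

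The RefSeq promoters of Pcsk1, Cxcl2, Cxcl3 and Ccr3 are shown because each holds a motif of a well-known regulator, and because Cxcl2 and Cxcl3 can be read side by side. Of the 16 named genes that fell, 12 had an entry in the RefSeq promoter table (GRCm38.p6). The 250 bases before the annotated start were searched on both strands for 8 motifs. The palindromic cyclic AMP response element TGACGTCA was in 1 of the 12 genes and in 1.55% of all 32851 promoters, and its part TGACGT was in 1 of 12 and 6.47%. The κB sequence of 10 bases that stands in capitals in Cxcl2 below was in 2 of 12 and 0.0852%. With 1 of its central bases free it was in 2 of 12 and 0.356%, and with 4 central bases free, a form that takes in both others, in 4 of 12 and 16.5%. The AP-1 sequence TGANTCA was in 1 of 12 and 6.75%, the nuclear receptor half-site AGGTCA in 2 of 12 and 14%, and the E-box CACGTG in 0 of 12 and 6.02%. The motifs to display, and Cxcl3 and Ccr3, were chosen after the matches were seen, so these shares describe chosen letters and a match is not evidence of binding. The sequences below run 5′ to 3′ on the plus strand and end at the base before the start, with TGACGTCA in capitals for Pcsk1 and the κB sequence or its reverse complement in capitals for the others. The Pcsk1 sequence lies at chr13:75089607-75089856, and its motif begins 78 bases before the start. Cxcl2 lies at chr5:90903649-90903898 with the motif beginning 97 bases before the start, and Cxcl3 at chr5:90785851-90786100 with the motif 73 bases before it. Ccr3 lies at chr9:124021721-124021970, with the motif on the antisense strand from 179 bases before the start.
Pcsk1: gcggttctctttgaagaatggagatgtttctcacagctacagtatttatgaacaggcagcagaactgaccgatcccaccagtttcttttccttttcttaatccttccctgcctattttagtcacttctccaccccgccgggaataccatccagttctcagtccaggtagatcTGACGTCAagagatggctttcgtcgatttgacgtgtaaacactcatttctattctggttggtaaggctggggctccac
Cxcl2: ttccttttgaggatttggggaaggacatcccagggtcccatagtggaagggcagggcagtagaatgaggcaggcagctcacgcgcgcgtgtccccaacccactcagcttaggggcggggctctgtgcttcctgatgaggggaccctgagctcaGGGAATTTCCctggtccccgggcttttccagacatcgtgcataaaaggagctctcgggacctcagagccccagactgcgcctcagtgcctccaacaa
Cxcl3: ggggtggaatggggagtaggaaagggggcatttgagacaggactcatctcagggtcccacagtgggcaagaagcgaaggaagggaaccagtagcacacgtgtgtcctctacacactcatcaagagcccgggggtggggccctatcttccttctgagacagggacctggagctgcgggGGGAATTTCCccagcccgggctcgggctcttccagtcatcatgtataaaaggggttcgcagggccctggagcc
Ccr3: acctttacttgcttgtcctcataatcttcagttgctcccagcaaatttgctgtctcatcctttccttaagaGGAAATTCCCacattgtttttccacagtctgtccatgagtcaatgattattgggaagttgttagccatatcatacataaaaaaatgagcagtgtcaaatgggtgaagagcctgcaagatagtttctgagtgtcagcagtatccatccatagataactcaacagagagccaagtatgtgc

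Among the factors and cytokines of T helper lineages, 2 of 5 measured factors and the single measured cytokine fell, against 17.7% of all genes. Rorgt, the panel's probe named for the T cell form of the retinoic acid receptor-related orphan receptor gamma, the lineage factor of Th17 cells, had a signal of 91.5, 78.2, 54.5, 225 and 14.7 in HFD knockouts, against 162, 1359 and 2752 in NCD knockouts. The NCD mice differed among themselves by more than the HFD mice did, and NCD replicate 1 lay below HFD replicate 4, so the groups overlap. The log2 difference was -3.64 (SE 0.87, adjusted p = 0.00462), from 32, 78, 33, 243 and 33 counts on HFD and 33, 323 and 315 on NCD. It did not pass without NCD replicate 3 (adjusted p = 0.0791) or with the depth covariate, at -2.93 (adjusted p = 0.128). Nr1d1, the circadian repressor REV-ERBα, which competes with ROR factors for their DNA sites, had 37.2, 42.1, 69.3, 27.8 and 4.45 in HFD knockouts, against 152, 88.4 and 192 in NCD knockouts. Its groups did not overlap, and its log2 difference was -2.29 (SE 0.64, adjusted p = 0.0153), lost without NCD replicate 1 or 3 (adjusted p up to 0.112). With the depth covariate it was -1.84 (adjusted p = 0.249). Il5, a type 2 cytokine that supports eosinophils, had a signal of 5.72, 2.00, 1.65, 3.70 and 0.445 in HFD knockouts, against 24.6, 16.8 and 43.7 in NCD knockouts. All HFD values were below all NCD values with a log2 difference of -3.07 (SE 0.71, adjusted p = 0.00399), but the counts were 2, 2, 1, 4 and 1 on HFD and 5, 4 and 5 on NCD. The diets share a count of 4, and no fold is given at such counts. The Il5 difference with the depth covariate was -1.15 (adjusted p = 0.268).

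The remaining helper factors did not pass. Gata3, the type 2 lineage factor that VAT Tregs also express, ranged from 1315 to 1531 on HFD and 909 to 2595 on NCD, with a log2 difference of 0.02 (SE 0.58, adjusted p = 0.987). The Th1 factor Tbet (0.57) and RoRa (-0.02), a ROR-family factor of VAT and type 2 cells, were also on either side of 0.

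The S100 calcium-binding proteins and annexin A1, which many effector and memory T cells express, fell in 3 of the 5 measured members of their list, whose median was -1.93, against 17.7% of all genes and a median of -0.46. S100a4, which can bind myosin and promote cell motility, had 2009, 3129, 3264, 2617 and 1769.6 in HFD knockouts, against 4185, 5824 and 7479 in NCD knockouts. All HFD mice were below all NCD mice, and the log2 difference was -1.19 (SE 0.38, adjusted p = 0.0329). The call was lost without HFD replicate 1 or 5 or NCD replicate 2 or 3 (adjusted p up to 0.200). It was the called gene with the most counts, 703, 3122, 1978, 2827 and 3978 on HFD and 852, 1384 and 856 on NCD. S100a6 had 68.6, 81.2, 322, 115 and 35.1 in HFD knockouts, against 192, 690.2 and 1380.4 in NCD knockouts. HFD replicate 3 lay above NCD replicate 1, so the groups overlap, and the log2 difference was -2.58 (SE 0.75, adjusted p = 0.0179), lost without HFD replicate 5 or NCD replicate 2 or 3 (adjusted p up to 0.198). Anxa1, a phospholipid-binding protein with anti-inflammatory activity, had 62.9, 49.1, 101, 38.0 and 13.3 in HFD knockouts, against 147, 248 and 367 in NCD knockouts. Its groups did not overlap and its log2 difference was -2.41 (SE 0.58, adjusted p = 0.00462), or not past the threshold without NCD replicate 3 (adjusted p = 0.0597). The galectin Lgals3 (log2 -1.93 (SE 0.78, adjusted p = 0.0915)) had 1 to 3 counts in each mouse, and the nuclear lamina gene Lmna had a log2 difference of -0.80 (SE 0.43, adjusted p = 0.215). None of the 3 called genes passed with the depth covariate, at -0.92 (adjusted p = 0.368) for S100a4, -1.43 (adjusted p = 0.408) for S100a6 and -1.61 (adjusted p = 0.249) for Anxa1.

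Of the cytotoxic effectors, 2 of 3 fell, against 17.7% of all genes. GzmA, a granule protease, had 17.1, 63.1, 101, 57.4 and 30.7 in HFD knockouts, against 280.0, 130.5 and 437 in NCD knockouts. The groups did not overlap and the log2 difference was -2.44 (SE 0.78, adjusted p = 0.0336). It did not pass without HFD replicate 1 or 5 or NCD replicate 1 or 3 (adjusted p up to 0.200). Perforin, the pore-forming partner of the granzymes, had 206, 155, 129, 151 and 110.3 in HFD knockouts, against 408, 358 and 778 in NCD knockouts. Its groups did not overlap either, with a log2 difference of -1.71 (SE 0.59, adjusted p = 0.0477), but the call was lost in each of the 8 fits that left out 1 mouse (adjusted p up to 0.228). GzmB, the granzyme most often tied to Treg suppression, had 17.1, 32.1, 102, 38.0 and 25.8 in HFD knockouts, against 147, 92.6 and 271 in NCD knockouts. HFD replicate 3 exceeded NCD replicate 2, and the difference did not pass (log2 -2.09 (SE 0.74, adjusted p = 0.052)). Neither call held with the depth covariate, at -2.76 (adjusted p = 0.128) for GzmA and -1.28 (adjusted p = 0.408) for Perforin.

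Among 8 measured suppressive effectors, Perforin was the only one that passed, against 17.7% of all genes, and the list's median log2 difference was -0.01, against -0.46. IL-10, a suppressive cytokine, had 71.5, 95.2, 137, 88.9 and 141 in HFD knockouts, against 196, 118 and 209.7 in NCD knockouts. The groups overlap and the difference did not pass (log2 -0.71 (SE 0.43, adjusted p = 0.273)). Il10ra, the ligand-binding chain of its receptor, had a log2 difference of -0.43 and Ebi3, a subunit of interleukins 27 and 35, of -0.18. The growth factor Areg, which VAT Tregs use in tissue repair, ranged from 701 to 1117 on HFD and 673 to 928 on NCD. TGFb, which the panel names without giving the gene, had 1975, 2892, 2747, 2553 and 3283 in HFD knockouts, against 1351, 1477 and 1852 in NCD knockouts. All HFD mice were above all NCD mice, and the log2 difference was 0.78 (SE 0.38, adjusted p = 0.158), past the threshold when samples were centred on their median gene (adjusted p = 0.0356). Its surface presenters Lrrc32 (log2 1.01) and Nrp1 (0.33) did not pass.

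Genes that define VAT Tregs passed in 1 of 14 measured cases, Pparg, against 17.7% of all genes, and the median log2 difference of this list was 0.00, against -0.46. Pparg, the lipid-sensing nuclear receptor named above, had 31.4, 123, 51.2, 56.5 and 38.7 in HFD knockouts, against 172, 88.4 and 175 in NCD knockouts. HFD replicate 2 exceeded NCD replicate 2, so the groups overlap. The log2 difference was -1.36 (SE 0.47, adjusted p = 0.0477), from 11, 123, 31, 61 and 87 counts on HFD and 35, 21 and 20 on NCD. It passed only without HFD replicate 2 or without NCD replicate 2 among the 8 fits that left out 1 mouse (adjusted p up to 0.220 in the others), and its sign turned to 1.32 when 20 counts were subtracted. The Pparg difference with the depth covariate was -0.74 (adjusted p = 0.548). Il1rl1, the interleukin-33 receptor, had 712, 1713, 2313, 2079 and 1860.4 in HFD knockouts, against 6925, 2874 and 2927 in NCD knockouts. All HFD mice were below all NCD mice, with HFD replicate 1 apart at the low end and NCD replicate 1 at the high end, but the difference did not pass (log2 -1.26 (SE 0.51, adjusted p = 0.0915)). Klrg1, a marker of terminally differentiated Tregs, had 22.9, 172, 239, 138 and 56.9 in HFD knockouts, against 255, 370.3 and 183 in NCD knockouts. Its ranges overlap (log2 -1.44 (SE 0.88, adjusted p = 0.273)). Dgat1, which makes triglyceride from diacylglycerol, had a log2 difference of 0.44, Irf4 of -0.43 and Prdm1, which encodes BLIMP-1, of -0.51.

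The 5 measured genes of the Treg lineage core were detected in all 8 mice. Of these, 0 passed (limma), against 17.7% of all genes. An unadjusted p under 0.05 was found in 0 of the 5, against 30 of all 96 genes. Whether a list of 5 genes differs from the panel in this was not tested. Foxp3, the lineage factor, had 3876, 3643, 3576, 3534 and 4603 in HFD knockouts, against 3001, 3417 and 3434 in NCD knockouts. The lowest HFD mouse was just above the highest NCD mouse, and the difference did not pass (log2 0.22 (SE 0.52, adjusted p = 0.814)). Helios, a factor of thymus-derived Tregs, ranged from 3519.7 to 4877 on HFD and 2001 to 3451 on NCD (log2 0.67 (SE 0.41, adjusted p = 0.273)). CD25, the interleukin-2 receptor alpha chain, had 1501, 1327, 1315, 1132 and 1674 in HFD knockouts, against 3806, 2045 and 2507 in NCD knockouts. All HFD mice were below all NCD mice and the difference did not pass (log2 -0.97 (SE 0.56, adjusted p = 0.265)). The 5 core genes measured summed to 10257 to 13543 in HFD knockouts and 8483 to 11660.1 in NCD knockouts.

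Of 6 activation and costimulatory receptors 0 passed (limma, as above), against 17.7% of all genes. An unadjusted p under 0.05 was found in 2 of them, Tnfrsf9 and ICOS, against 30 of all 96 genes. Neither count was tested against the panel. Tnfrsf9, the costimulatory receptor 4-1BB, had 909, 1278, 1054, 918 and 1521 in HFD knockouts, against 236, 703 and 515 in NCD knockouts. All HFD mice were above all NCD mice, with a log2 difference of 1.34 (SE 0.58, adjusted p = 0.112). ICOS had 2407, 3449.9, 2297, 3284 and 3151 in HFD knockouts, against 1577, 2559 and 830.0 in NCD knockouts, and HFD replicates 1 and 3 lay below NCD replicate 2 (log2 0.94 (SE 0.41, adjusted p = 0.112)). Pdcd1, the inhibitory receptor PD-1, and the early activation marker Cd69 had log2 differences of 0.16 and -0.39.

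**Figure D3:**
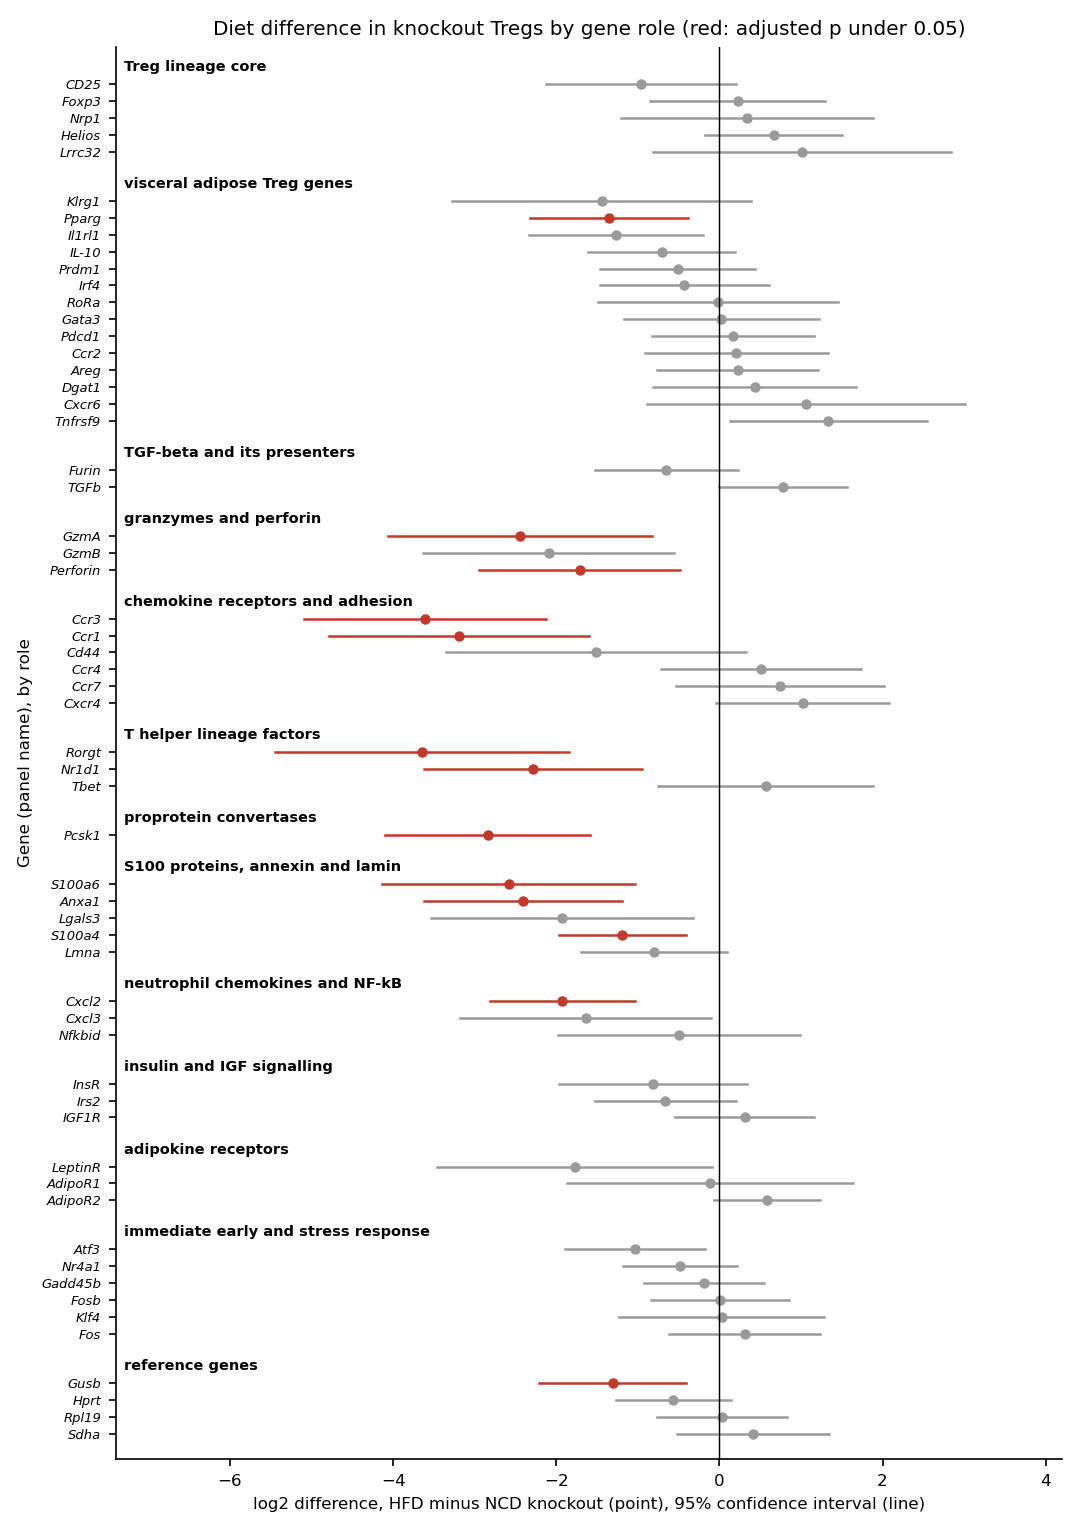
The log2 difference, HFD minus NCD knockout, with its 95% confidence interval, for genes grouped by role, where a gene of several lists is drawn once. Red marks genes with an adjusted p under 0.05, all of which lie below 0.

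Of 3 insulin and IGF signalling genes and 3 adipokine receptors 0 passed (limma), against 17.7% of all genes. An unadjusted p under 0.05 was found in 1 of them, LeptinR, against 30 of all 96 genes. A difference of these lists from the panel was not tested. Irs2 had 266, 739.7, 769, 541 and 596 in HFD knockouts, against 806, 1317 and 612 in NCD knockouts. The ranges overlap and the log2 difference was -0.66 (SE 0.42, adjusted p = 0.285). IGF1R ranged from 119 to 221 on HFD and 88.4 to 192 on NCD (log2 0.31 (SE 0.41, adjusted p = 0.661)). AdipoR2, a receptor for adiponectin, had 449, 649, 899, 656 and 569 in HFD knockouts, against 481, 568 and 271 in NCD knockouts, and the difference was 0.58 (SE 0.31, adjusted p = 0.215). It passed when samples were centred on their median gene, with an adjusted p of 0.0441. LeptinR, the receptor for the adipocyte hormone leptin, had 11.4, 5.01, 13.2, 3.70 and 4.45 in HFD knockouts, against 24.6, 37.9 and 17.5 in NCD knockouts, without overlap. That difference did not pass (log2 -1.78 (SE 0.81, adjusted p = 0.126)) and rests on 4, 5, 8, 4 and 10 counts on HFD and 5, 9 and 2 on NCD. AdipoR1 had a log2 difference of -0.11.

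The immediate early and stress genes, which respond to stimulation and to tissue digestion, passed in 0 of 6 cases (limma), against 17.7% of all genes. Their median log2 difference was -0.09, against -0.46 over all genes. Atf3 had 703, 718, 919, 359 and 403 in HFD knockouts, against 997, 863 and 1966 in NCD knockouts, the only member at an unadjusted p under 0.05 (log2 -1.03 (SE 0.41, adjusted p = 0.0915)). Fos had 12725, 4398, 6757, 4886 and 3534 in HFD knockouts, against 5830.1, 4899 and 3582 in NCD knockouts. HFD replicate 1 was the highest of the 8 mice (log2 0.31 (SE 0.44, adjusted p = 0.678)). Nr4a1, which T cell receptor signals induce, had a log2 difference of -0.49, Gadd45b of -0.19, Klf4 of 0.03 and Fosb of 0.01.

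Zbtb10 and Cabyr fell and belong to no list. Zbtb10, a zinc finger protein of the BTB family, had 60.0, 29.1, 36.3, 35.2 and 23.1 in HFD knockouts, against 201, 96.8 and 463 in NCD knockouts. The groups did not overlap and the log2 difference was -2.54 (SE 0.55, adjusted p = 0.00288). Cabyr, a calcium-binding protein best known from the sperm tail, had 34.3, 41.1, 19.8, 38.0 and 5.78 in HFD knockouts, against 49.1, 185 and 402 in NCD knockouts. The groups were apart by the gap between HFD replicate 2 and NCD replicate 1, and the log2 difference was -2.69 (SE 0.72, adjusted p = 0.0105). Without NCD replicate 3 it did not pass (adjusted p = 0.146), whereas Zbtb10 passed in each of the 8 fits that left out 1 mouse. Neither passed with the depth covariate, at -1.66 (adjusted p = 0.128) for Zbtb10 and -1.38 (adjusted p = 0.408) for Cabyr. After GzmB, Myadm and Serpinb1a came next in order of p without passing, with log2 differences of -1.22 (SE 0.45, adjusted p = 0.0634) and -2.17 (SE 0.83, adjusted p = 0.0725). Their HFD mice were all below their NCD mice. Itga2, an integrin subunit that binds collagen, and Dmxl2 followed, with log2 differences of -1.87 (SE 0.77, adjusted p = 0.0915) and -1.74 (SE 0.72, adjusted p = 0.0946). Neither exceeded 8 counts in any mouse, and the diets overlap in both.

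Of 4 reference genes 1 passed, against 17.7% of all genes. Gusb, a lysosomal enzyme gene often used to scale such panels, had 82.9, 55.1, 119, 55.5 and 65.8 in HFD knockouts, against 231, 88.4 and 288 in NCD knockouts. The groups overlap and Gusb was called with a log2 difference of -1.31 (SE 0.43, adjusted p = 0.0403). It kept its call in 2 of the 8 fits that left out 1 mouse, those without HFD replicate 3 and without NCD replicate 2 (adjusted p up to 0.228 in the others). With the depth covariate it was -1.03 (adjusted p = 0.38). Hprt had a log2 difference of -0.57, Rpl19 of 0.03 and Sdha of 0.42, none of them past the threshold. When samples were scaled on these 4 genes, 8 of 96 genes were called, all lower.

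Ccr3, Ccr1, Cxcl2 and Il5 are also made by other cells of the fat, and markers of such cells were read beside them. Of 15 macrophage and myeloid markers listed, 2 are on the panel, Lyz2 and Mmp9, and none is at 0 in any mouse. Their summed signal was 33.3 to 292 in HFD knockouts and 109 to 402 in NCD knockouts. Lyz2, the macrophage lysozyme, had 48.6, 282, 127, 30.5 and 30.7 in HFD knockouts, against 108, 105 and 227 in NCD knockouts, and HFD replicate 2 was the highest (log2 -0.96 (SE 1.14, adjusted p = 0.616)). Mmp9, a secreted protease, ranged from 2.78 to 17.1 on HFD and 4.21 to 175 on NCD, where NCD replicate 3 was apart from the rest (log2 -1.20 (SE 0.86, adjusted p = 0.365)). The stromal marker Igfbp7, 1 of 10 listed, ranged from 95.2 to 294 on HFD and 75.8 to 279.6 on NCD, and the T cell receptor gene Tcra, 1 of 8 T cell markers listed, from 443 to 2725 on HFD and 253 to 1066 on NCD. The part of other cells in the calls was not tested.

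In control Tregs with intact Insr, the same diets gave 20 called genes of 96 (20.8%), 17 lower (17.7%) and 3 higher. The control mice had overlapping totals, 24005 to 152648 counts on HFD and 17371 to 141932 on NCD, unlike the knockouts. Their scaled signals summed to 100071 to 104896 on HFD and 103368 to 126723 on NCD. This fit did not bring them to 1 panel total. The 2 comparisons share no sample, although all 24 mice share 1 estimate of the spread. Called in both were 8 genes, all lower on HFD in both genotypes: Pcsk1, Cxcl2, Anxa1, Cabyr, Nr1d1, S100a4, GzmA and Pparg. They make up 47.1% of the knockout calls and 40% of the control calls. Pcsk1 had control signals of 77.3 ± 31.3 on HFD and 1347 ± 239 on NCD (SD, n = 4 and 3), a log2 difference of -4.21 (adjusted p = 5.00e-05). Cxcl2 had 185 ± 63.0 on HFD and 1744 ± 391 on NCD in controls, a log2 difference of -3.28 (adjusted p = 2.21e-05), and S100a4 had 1914 ± 574 on HFD and 10531 ± 1595 on NCD, a log2 difference of -2.51 (adjusted p = 6.11e-05). Of the 17 knockout calls, 16 had the same sign in controls, and of all 96 genes, 72 did. Across genes the 2 sets of log2 differences had Pearson's r = 0.55, a description over 96 genes that are not independent replicates.

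The test of the difference itself, the diet difference in knockouts minus that in controls, passed in 0 of 96 genes (0%) by limma with Benjamini-Hochberg adjustment, and 12 genes had an unadjusted p under 0.05. Other settings called 0 to 7 genes, with 7 under array weights. Voom on the recovered counts and bringing all samples to 1 panel total gave 2 each. Rorgt had the smallest p. Its knockout difference of -3.64 stood against 1.32 in controls, whose signals were 946 ± 779 on HFD and 287 ± 52.8 on NCD (SD, n = 4 and 3). The interaction was -4.96 (SE 1.26, 95% interval -7.56 to -2.36, adjusted p = 0.0634). Ccr7, the lymph node homing receptor, had 2558, 1257, 1509.9, 1941 and 3458 in HFD knockouts, against 2078, 1351 and 620.3 in NCD knockouts. The knockout groups overlap, whereas controls had 2682 ± 1080.3 on HFD and 244 ± 249 on NCD. The Ccr7 interaction was -3.16 (SE 0.89, adjusted p = 0.0853). Ccr3 had 9.26 ± 4.16 on HFD and 13.6 ± 4.17 on NCD in controls and an interaction of -3.05 (SE 1.03, adjusted p = 0.222). Lmna had 239 ± 138 on HFD and 109.9 ± 21.9 on NCD in controls and an interaction of -1.76 (SE 0.63, adjusted p = 0.222). For the called genes Pcsk1 and Anxa1 the 95% intervals of the interaction were -0.45 to 3.19 and -1.39 to 2.11. Differences of over 1 log2 unit between genotypes are thus within the error. The unadjusted intervals of Cxcl2 (0.07 to 2.64) and S100a4 (0.19 to 2.44) lay above 0, a smaller fall in knockouts. Neither passed by limma (adjusted p = 0.351 and 0.321). The intervals of the other genes called in both genotypes cover 0. No diet difference was therefore shown to be particular to knockout Tregs at this sample size and threshold.

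**Figure D4:**
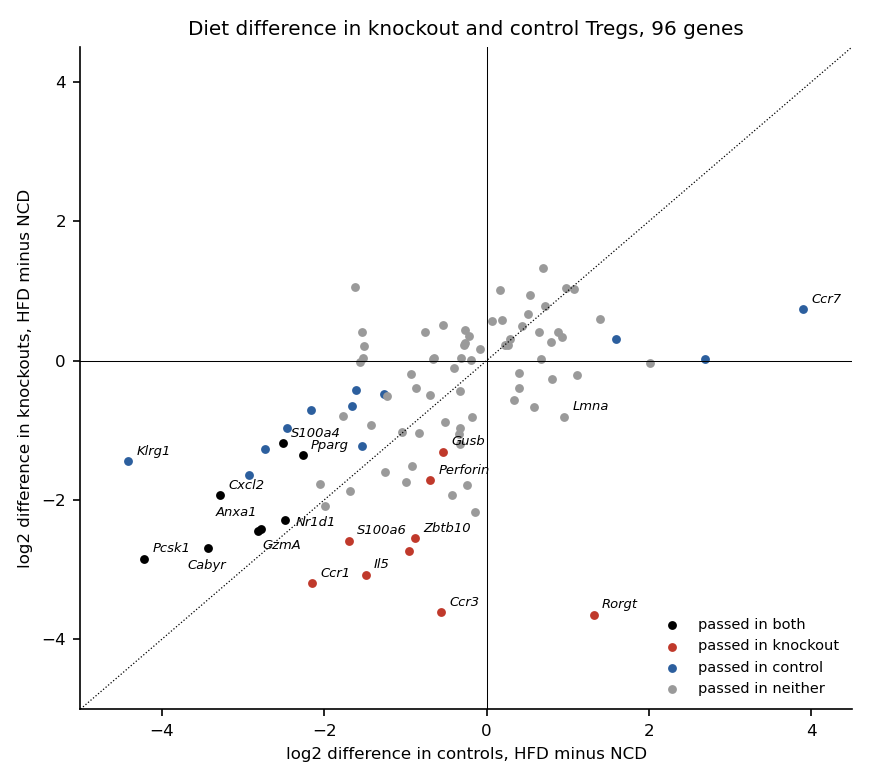
The log2 difference, HFD minus NCD, in knockouts (vertical axis) against controls (horizontal axis) for the 96 genes, with the line of equal differences dotted. Black points passed in both genotypes, red in knockouts, blue in controls and grey in neither, and the 8 black points all lie below 0 on both axes.

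**Figure D5:**
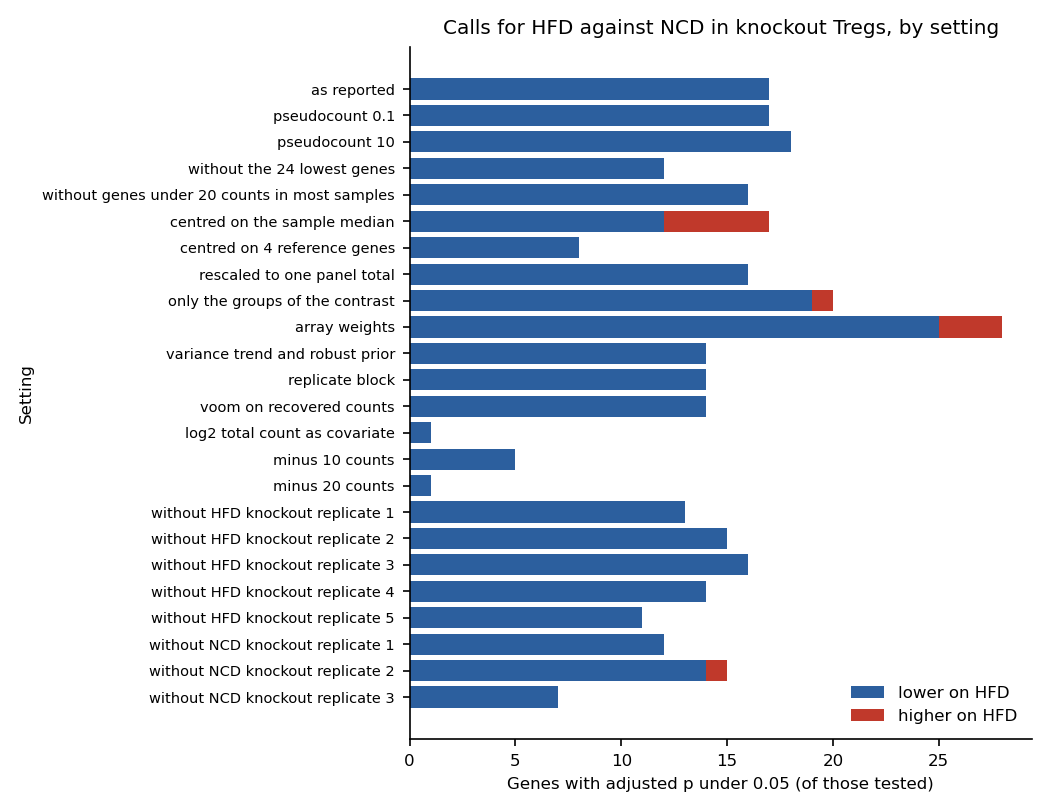
Number of genes called for HFD against NCD in knockouts in each setting, with lower calls in blue and higher calls in red. The count as reported is 17, and it ranges from 1 with the depth covariate or 20 counts subtracted to 28 with array weights.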

How the data were processed

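VAT Tregs of 24 mice were measured on a 96-gene nCounter panel on a SPRINT Profiler, per the labels' protocols. The deposited signal is linear and was scaled by the authors. Its sum over the panel was about 100000 in the 8 mice compared. It was higher in some controls, at 109979, 103368 and 126723 in the NCD controls and up to 104896 in HFD controls. What they did about background, and with which software, was not stated. Dividing by the step of each sample gave whole numbers, within 0.02, in 2302 of 2304 values and in all 768 of the 8 mice compared. These are the recovered counts. Totals per mouse are given above. Panel names matched a mouse symbol in 89 cases, a synonym in 3, several symbols in 1 (TGFb) and none in 3 (LeptinR, Perforin, Rorgt).

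Group means of log2(signal + 1) were fitted for 6 groups and 24 mice, those aged 52 weeks included, with limma 3.58.1 (R 4.3.3), without a filter on low genes. Contrasts were tested two-sided with Benjamini-Hochberg adjustment over 96 genes at 0.05. The added 1 by itself makes fold changes of low genes smaller. No background was subtracted in this fit, which can move them either way. With 10 counts subtracted, the log2 difference of Ccr3 went from -3.61 to -1.97 and that of Ccr1 from -3.19 to -4.13. The text names every gene past the threshold, the next 10 by p, the 5 interactions of smallest p where none passed, InsR, and members of the role lists. The members, this rule and the lists were chosen with earlier results of these data known, and some list entries were added after the panel was seen. Results for 1 called gene and for 1 of the 5 interactions are not reported here, although counts include them. The smallest chi-square per degree of freedom between libraries of the same diet was 17.5, so none was taken for a repeat deposit. Deviations of same-numbered mice from their group means correlated at -0.20, 0.19 and 0.20, within the -0.30 to 0.30 of differently numbered mice. The mice were treated as unpaired, although 3 such pairs cannot exclude a pairing. The fit was tested on simulated data with changes in genes of low abundance, after a first simulation that also changed abundant genes gave false calls. No background was added to the simulated counts, so they cannot speak to the calls at low counts. Because signals are scaled to a panel total, a change in an abundant gene shifts all others, which the fit cannot separate. Alternatives are listed in the closing section.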

Additional observations from a re-analysis of the deposited data

Results flagged for a closer look

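Of 30 sets of values checked, 1 had a mouse far from the others of its group, and chance alone gives about 1 in 20. The sets checked did not cover every gene in both diet groups. In HFD knockouts, Il1rl1, the interleukin-33 receptor, had a log2 signal in replicate 1 whose gap to the nearest mouse was 0.745 of the group's range, above the critical value of 0.71 for 5 samples. The signals were 712, 1713, 2313, 2079 and 1860.4 in HFD knockouts, against 6925, 2874 and 2927 in NCD knockouts. HFD replicate 1 has the lowest total count of the HFD knockouts, 34986, and also the highest Fos signal of the 8 mice.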

How the results depend on the processing

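For HFD against NCD in knockouts, 17 genes were called. Pseudocounts of 0.1 and 10, leaving out the 24 lowest genes or genes under 20 counts in most samples, 1 panel total, median centring, fitting the contrast's groups alone, a variance trend with robust prior, voom on recovered counts and a replicate block (14 genes) gave 12 to 20 calls. Array weights gave 28, of which 3 were higher on HFD, and scaling on 4 reference genes gave 8. The depth covariate gave 1, and subtracting 10 or 20 counts, chosen after the data were seen, gave 5 and 1. Leaving out 1 mouse gave 7 to 16. Ccr1, Ccr3, Cxcl2, Il5, Pcsk1 and Zbtb10 were called in all 8 such fits, Anxa1, Cabyr and Rorgt in 7, and Perforin in 0. Because each NCD knockout has fewer total counts than each HFD knockout, depth and diet cannot be told apart in these mice. Among the called genes, the 10 next by p and InsR, the sign changed for InsR with the depth covariate (log2 0.084) and for Pparg with 20 counts subtracted (1.32). Of all 96 genes, 22 changed sign with the depth covariate, among them Ccr7 (-0.32), Cd44 (0.30), Csf1 (0.55) and Nfkbid (0.34), none of which had passed. Median centring turned 10 and scaling on reference genes 7.

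For the interaction, array weights gave 7 calls, 1 panel total and voom gave 2 each, and pseudocount 10, both filters on low genes, median centring, the variance trend and the depth covariate gave 1 each. Leaving out 1 mouse gave 0 to 1. The replicate block gave 0. The ratio of mean total counts was 4.09 to 6.65 with 1 mouse left out, with exact p values that those smaller designs cannot take below 0.05. The count-based quasi-likelihood test that was planned was not run, since the deposited unit is signal and the recovered counts were not shown to be raw counts. Genes with under about 10 counts in most mice are limited by counting error, and their probes' background was not measured here.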

Other observations

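Several other panel genes were measured in the same 8 mice and did not pass. Rgs2, a regulator of G protein signalling, had 7274, 6748, 7084, 5389.6 and 6769 in HFD knockouts, against 4641, 5037 and 4412 in NCD knockouts, with every HFD mouse above every NCD mouse (log2 0.50 (SE 0.43, adjusted p = 0.497)). Cdkn1a, which encodes the cell cycle inhibitor p21, had 1355, 1272, 1223, 1317 and 1475 in HFD knockouts, against 1586, 2049 and 1634 in NCD knockouts, with every HFD mouse below every NCD mouse (log2 -0.40 (SE 0.52, adjusted p = 0.657)). Plin2, a coat protein of lipid droplets, had 88.6, 884, 57.8, 299 and 147 in HFD knockouts, against 152, 139 and 306 in NCD knockouts. HFD replicate 2 was the highest of the 8 mice and the log2 difference was -0.03 (SE 0.96, adjusted p = 0.987). Ltb4r1, the leukotriene B4 receptor, had 823, 62.1, 67.7, 223 and 853 in HFD knockouts, against 162, 206 and 341 in NCD knockouts. HFD replicates 1 and 5 were high and HFD replicates 2 and 3 low, so the mice of 1 diet differed by more than the diets did (log2 0.04 (SE 0.90, adjusted p = 0.987)). The cytokine gene Csf1 had 8.57, 8.02, 8.25, 5.55 and 1.33 in HFD knockouts, against 9.82, 12.6 and 78.6 in NCD knockouts, on 2 to 9 counts, and NCD replicate 3 was apart from the others (log2 -1.79 (SE 0.96, adjusted p = 0.215)).

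The recovered low counts were unevenly spread over their last digit, a pattern noticed after the data were seen and given here as a description. Among counts from 10 to 89 in the 8 knockout mice, 148 of 243 (60.9%) ended in 0, 1 or 2, where an even spread would put 30% there. The share was 63.2% in HFD knockouts and 58.7% in NCD knockouts, and ran from 45% to 84.2% in single mice. Over all 24 samples it was 52.7%. Ccr1, at 3, 30, 21, 20 and 10 counts on HFD and 38, 22 and 21 on NCD, and Nr1d1, at 13, 42, 42, 30 and 10 and 31, 21 and 22 in the same order, are examples. What gives this spread, and whether counts in it are independent of each other, was not tested.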
